A study of Saccharomyces cerevisiae with 2 samples.

Results

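The genes described here encode the soluble factors that carry out cytosolic translation in the budding yeast Saccharomyces cerevisiae: the initiation, elongation and termination factors, the proteins that repress the cap-binding factor, and the general amino acid control genes that act on initiation. They were chosen by name, and all 44 were found among the 6603 open reading frames (ORFs) listed in both count files. Messenger RNA was sequenced in 2 libraries, 1 from strain CY2706 with wild-type TRA1 and 1 from strain CY3003 with the allele tra1-L3733A. Tra1 is a very large subunit shared by the histone acetyltransferase complexes SAGA and NuA4. Both cultures grew in YP medium with 2% glucose at 30 °C until A600 reached 2.0, and no other part of either genotype is given in the sources used here. With 1 library for each strain, differences have no replicate to be checked against, and they are differences between these libraries rather than between genotypes.

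Translation begins when eIF4F, a cap-binding protein on a scaffold with an RNA helicase, recruits a small ribosomal subunit that carries eIF2, eIF3, eIF1 and eIF1A. eIF2 brings the initiator tRNA and is recharged with GTP by eIF2B, and the kinase Gcn2 slows that step by phosphorylating eIF2 when amino acids are short, which raises translation of the activator Gcn4. eEF1A then delivers each aminoacyl-tRNA, eEF1B recharges eEF1A, eEF2 moves the ribosome along, the fungal factor eEF3 acts at the exit site, and eRF1 and eRF3 end the chain. In growing yeast many of these mRNAs, though not all, are made in large amounts together with those of ribosomal proteins.

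Summed over ORFs, the deposited counts came to 11564964 for TRA1 and 9970836 for tra1-L3733A. Levels are given as CPM, counts per 1000000 of a library size scaled with TMM (trimmed mean of M-values), and as CPM per kb of ORF span where genes are compared with each other. A ratio is the tra1-L3733A level over the TRA1 level, with a 95% exact (Clopper-Pearson) counting interval in brackets. That interval treats each read as an independent molecule. Without molecular identifiers a read need not be one, so the interval can be too narrow even for counting error. It also leaves out the spread between cultures. An ORF was called higher or lower where it had at least 20 reads in both libraries together, a 1.5-fold or larger difference and an interval not holding 1. The TRA1 mRNA itself had 12035 and 5102 reads, a ratio of 0.526 (0.509 to 0.544). A point mutation need not change the amount of its mRNA, so that ratio is no check of the labels.

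Most translation factor mRNAs differed little between the libraries. SUI1, which encodes eIF1, was lower in tra1-L3733A, and it was the only gene of the 44 that was called. None was called higher, against 2.8% of the 6248 ORFs tested, and 1 (2.27%) was called lower, against 5.46%. At 2-fold none of the 44 was called in either direction, against 0.32% of ORFs tested higher and 0.912% lower. Ratios ran from 0.626 for SUI1 to 1.46 for CAM1, a subunit of eEF1B. The median log2 ratio was 0.09, beside -0.00 over all ORFs tested, and 28 of the 44 log2 ratios lay above 0 and 16 below. With scaling by total counts every log2 ratio moved by -0.10, and the medians became -0.01 for the 44 genes and -0.10 for all ORFs. All 44 passed the filter on reads, the fewest being the 265 and 295 of HEF3.

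Smaller differences than the rule asks for were common in both directions. The counting interval lay above 1 for 22 of the 44 genes, against 24.2% of all ORFs tested, and below 1 for 12, against 25.5%. The deep counts of these genes give narrow intervals, so such counts depend on depth as well as on the ratio. With the 1.5-fold of the rule lowered so that a level 25% above the other sufficed, 6 genes were higher, against a background of 10.7%, and 2 were lower, against 14.4%. The higher ones were TEF1, TEF2, CAM1, NIP1, GCD6 and HEF3, and the lower ones SUI1 and TIF11.

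**Figure D1:**
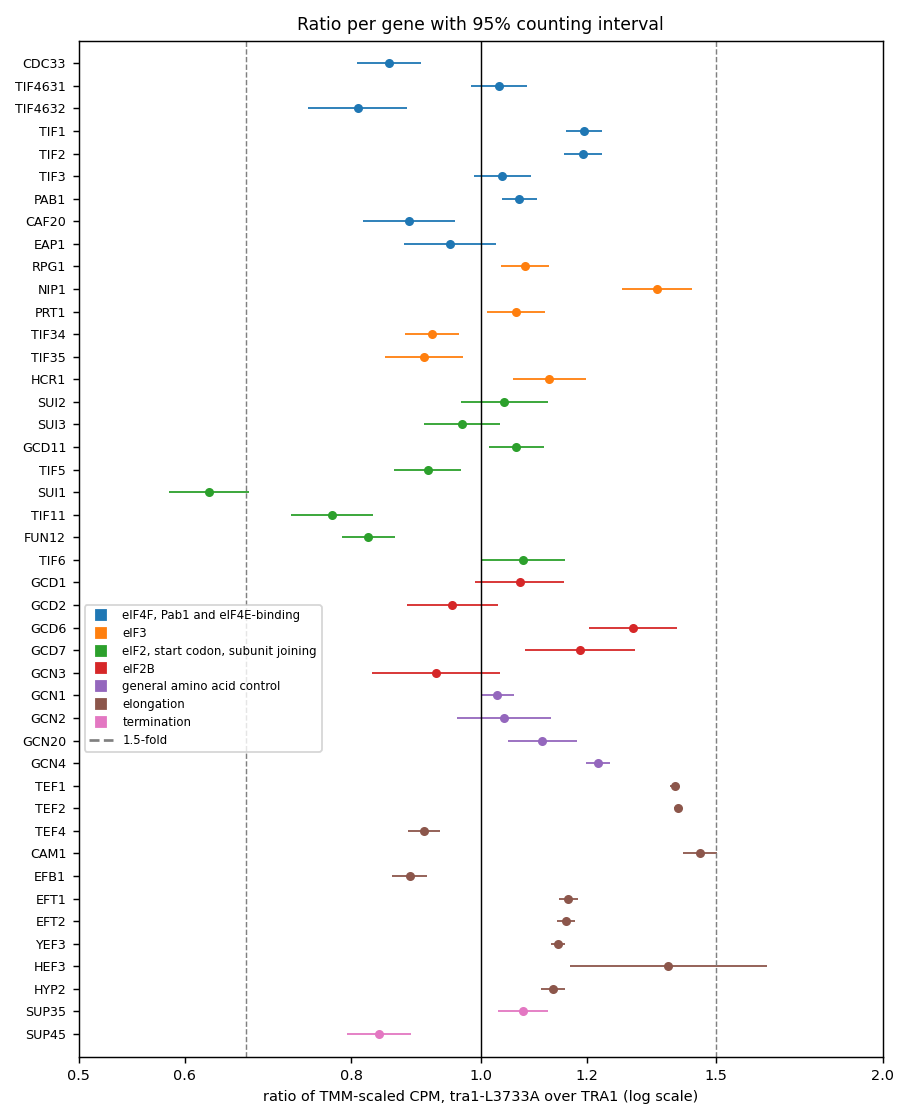
Ratio of the TMM-scaled CPM in tra1-L3733A over TRA1 for each of the 44 genes (log scale), coloured by role, with 95% counting intervals as bars, 1 library per strain. SUI1 at 0.626 is the only point beyond a dashed 1.5-fold line, and the elongation genes other than TEF4 and EFB1 lie to the right of 1.

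The elongation genes held most of the reads of the set. Together the 44 genes took 4.91% of all counts in the TRA1 library (4.90 to 4.92%, exact binomial) and 5.71% (5.69 to 5.72%) in tra1-L3733A. TEF1 and TEF2, the genes of eEF1A, alone took 2.34% (2.33 to 2.35%) and 3.07% (3.06 to 3.08%). The other 42 genes took 2.57% (2.56 to 2.58%) and 2.64% (2.63 to 2.65%). The larger share in tra1-L3733A thus lay mainly with the 2 eEF1A genes.

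TEF1 (YPR080W, XVI, 700592 to 701968, as the files number bases) had 133372 reads in TRA1 and 150074 in tra1-L3733A, and TEF2 (YBR118W, II, 477665 to 479041) had 137603 and 155780. Their levels were 8101 and 11316 CPM per kb for TEF1 and 8358 and 11746 for TEF2, the highest of the 44 genes in both libraries. The ratios were 1.40 (1.39 to 1.41) and 1.41 (1.40 to 1.42), and 1.40 (1.39 to 1.41) for both genes summed, short of the 1.5-fold of the rule. These values cannot be assigned to one copy. In the R64 reference the coding sequences differ at 2 of 1377 bases, and 70 of the 1343 windows of 35 bases, the read length, occur once in the genome (5.21%). The sources used here do not say how reads with several matches were treated. The window around 1 of those 2 differing bases is shown because only reads across such a base tell the copies apart. It lies at chrXVI:701338-701372 for TEF1 and chrII:478415-478449 for TEF2 (R64, both on the forward strand), with the differing base in capitals.
TEF1: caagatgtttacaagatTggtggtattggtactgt
TEF2: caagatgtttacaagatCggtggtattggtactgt

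The same holds for 2 further pairs. TIF1 and TIF2, the genes of the helicase eIF4A, differ at 6 of 1188 bases, with 11.0% of windows found once. EFT1 and EFT2, the genes of eEF2, differ at 4 of 2529 bases, with 5.61% of windows found once. The stretches with the most differences show how alike the copies are, at chrXI:555196-555230 (forward) for TIF1, chrX:154448-154482 (reverse) for TIF2, chrXV:575527-575561 (forward) for EFT1 and chrIV:1243659-1243693 (forward) for EFT2.
TIF1: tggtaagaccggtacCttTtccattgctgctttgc
TIF2: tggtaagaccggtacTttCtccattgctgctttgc
EFT1: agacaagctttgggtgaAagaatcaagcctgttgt
EFT2: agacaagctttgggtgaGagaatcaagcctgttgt

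Shared reads may have been split between copies or counted for each. The values given for either copy of these 3 pairs thus do not give its own level. If shared reads were counted for each copy, the summed counts and shares of these pairs would be too high and their intervals too narrow. With each pair summed to 1 gene, the set counted 41 genes, its median log2 ratio was 0.06, and the call of SUI1 stood.

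The eEF1A genes lie where most ORFs had ratios above 1. Of the 50 ORFs with the highest levels per kb, a number chosen after the values were seen, 40 had a log2 ratio above 0, and their median was 0.19. TEF1, TEF2 and HYP2 were the members among them. With the trend of the log2 ratio over abundance removed, TEF2 went from 1.41 to 1.16 and CAM1 from 1.46 to 1.38. Of the most abundant 10% of ORFs, 625 in all, the median was 0.05, beside 0.19 for the 18 translation factor genes among them and 0.06 for the 26 others.

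**Figure D2:**
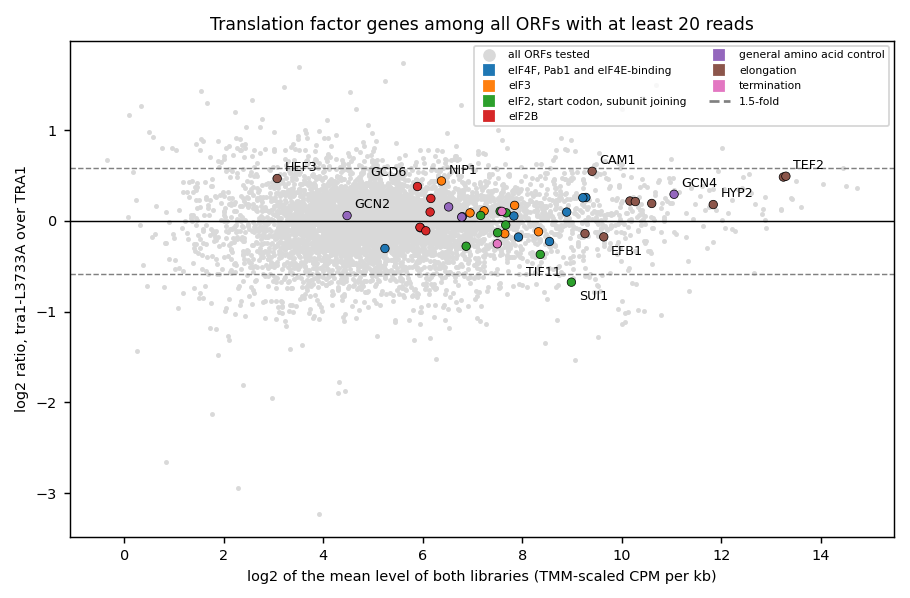
Log2 ratio, tra1-L3733A over TRA1, against the log2 mean level of both libraries (TMM-scaled CPM per kb) for all 6248 ORFs with at least 20 reads in grey and the 44 translation factor genes in colour, 1 library per strain. TEF1 and TEF2 lie among the rightmost points and above 0, and SUI1 lies below the lower dashed 1.5-fold line.

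The subunits of eEF1B, the exchange factor of eEF1A, stood on both sides of 1. CAM1 (YPL048W, XVI, 464398 to 465645), which encodes a gamma subunit, had 8204 reads in TRA1 and 9641 in tra1-L3733A, or 549.9 and 802 CPM per kb. Its ratio of 1.46 (1.42 to 1.5) was the highest of the set and short of the rule. With the GC trend removed it was 1.36, below HEF3, NIP1 and TEF2, and with the abundance trend removed it was 1.38, below HEF3 at 1.39. TEF4 (YKL081W, XI, 282535 to 284099), the gene of the other gamma subunit, had 12012 and 8776 reads, or 642 and 582 CPM per kb, a ratio of 0.907 (0.882 to 0.932). The order of the pair thus differed between the libraries: TEF4 stood at 1.17 times CAM1 per kb in TRA1 and at 0.726 times in tra1-L3733A, and their ratio intervals did not overlap. EFB1, the gene of the catalytic alpha subunit, had 9955 and 7093 reads, or 844 and 746 CPM per kb, a ratio of 0.884 (0.858 to 0.912).

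TEF4 and EFB1 are the only genes of the 44 with more than 1 coding exon in R64, and the files' ORF span takes in the intron. Per kb of coding sequence their levels were 810 and 735 CPM for TEF4 and 1340 and 1185 for EFB1, so TEF4 stayed above the CAM1 level in TRA1 and below it in tra1-L3733A. Among the 270 tested ORFs with more than 1 coding exon, a group looked up after the values were seen, the median log2 ratio was -0.09. It was -0.23 for the 89 ribosomal protein genes of that group and -0.02 for the other 181.

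**Figure D3:**
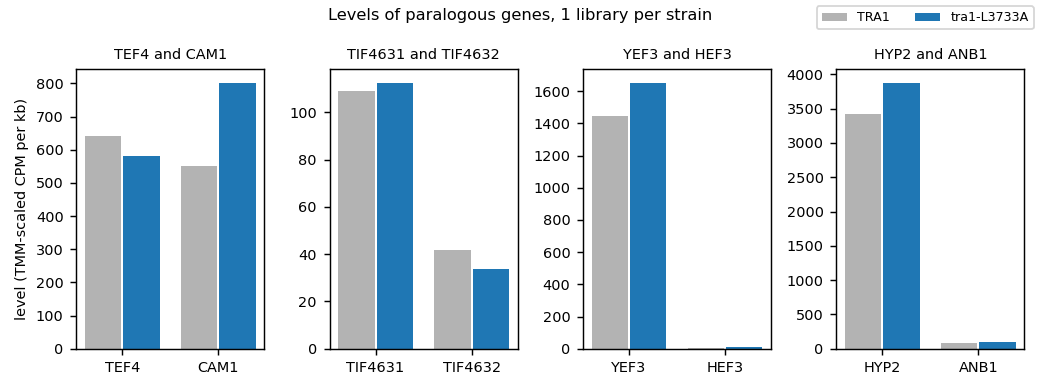
Level (TMM-scaled CPM per kb) of 4 pairs of related genes in the TRA1 library (grey) and the tra1-L3733A library (blue), 1 library each, with bars from 0 and a separate scale per panel. TEF4 is above CAM1 in TRA1 and below it in tra1-L3733A, while the order of the other 3 pairs is the same in both.

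The remaining elongation genes had ratios above 1 and below the rule. EFT1 had 32021 reads in TRA1 and 29998 in tra1-L3733A, a ratio of 1.16 (1.14 to 1.18), and EFT2 had 34583 and 32262, a ratio of 1.16 (1.14 to 1.18). YEF3, the gene of eEF3, had 54297 and 49936 reads, for a ratio of 1.14 (1.13 to 1.16). HEF3, a paralog of YEF3, had 265 and 295 reads, for a ratio of 1.38 (1.17 to 1.64), at 7.07 and 9.77 CPM per kb the lowest levels of the 44 genes. YEF3 was 205 times as high as HEF3 per kb in TRA1 and 169 times in tra1-L3733A. Their sequences agree at 74.5% of bases and 99.7% of read-length windows are found once, but HEF3 also overlaps YNL013C, whose reads are not separated from its own.

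HYP2 encodes eIF5A, the hypusine-bearing factor that helps the ribosome past difficult peptide bonds. It had 19388 reads in TRA1 and 17683 in tra1-L3733A, or 3426 and 3879 CPM per kb, next after the eEF1A genes in level, and a ratio of 1.13 (1.11 to 1.16). HYP2 overlaps YEL034C-A, whose reads are not separated from its own. ANB1, its paralog known from low oxygen, is not among the 44 genes and had 468 and 466 reads, or 82.7 and 102 CPM per kb, a ratio of 1.24 (1.08 to 1.41). Both ratios lay above 1 and their intervals overlapped.

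Of the 8 genes of eIF2, start codon selection and subunit joining, 1 was called, and 5, the called gene among them, had log2 ratios below 0. SUI1 (YNL244C, XIV, 187171 to 187497) encodes eIF1, which holds the scanning ribosome open until the start codon is met. It had 2432 reads in TRA1 and 1226 in tra1-L3733A, or 624 and 390.2 CPM per kb, a ratio of 0.626 (0.584 to 0.671) and a log2 ratio of -0.68, with 4.02% of ORFs tested below it. The upper bound reached past 0.667, the line of the rule. The call rested on 1 of the 2 count columns, headed fr and rr in the files and taken as read directions. The fr counts of 863 and 486 gave 0.699 (0.624 to 0.782), which misses the rule, and the rr counts of 1569 and 740 gave 0.585 (0.536 to 0.639), while the intervals of the columns overlapped. SUI1 counts were thus uneven, with more in rr in both libraries. Over all ORFs the fr column held 49.2% of counts in TRA1 and 49.4% in tra1-L3733A. The call stood under each of 3 other scalings and with a trend over length, GC content or abundance taken out, with ratios of 0.585 to 0.640.

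TIF11, the gene of eIF1A, which binds beside eIF1, had 2043 and 1273 reads, or 370.4 and 287 CPM per kb, and a ratio of 0.774 (0.721 to 0.830). FUN12, the gene of eIF5B, which joins the subunits, had 4617 and 3064 reads, for a ratio of 0.824 (0.787 to 0.863). TIF5, the gene of eIF5, which sets off GTP hydrolysis by eIF2, had 2759 and 2029 reads, for a ratio of 0.913 (0.862 to 0.967). None of these 3 reached the 1.5-fold of the rule. TIF6, whose product keeps large subunits from joining and acts in their assembly, had 1596 and 1383 reads, for a ratio of 1.08.

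The subunits of eIF2 itself were close to 1. SUI2 (alpha) had 1534 and 1287 reads, for a ratio of 1.04 (0.966 to 1.12). SUI3 (beta), which overlaps YPL238C, had 2114 and 1649 reads, for a ratio of 0.968 (0.907 to 1.03). GCD11 (gamma) had 3750 and 3211 reads, for a ratio of 1.06 (1.01 to 1.11). Their levels per kb spanned 140 to 206 CPM in TRA1 and 146 to 210.5 in tra1-L3733A.

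The start codon of SUI1 lies in a sequence unlike that of most of these genes, and it is shown since eIF1 acts at this step. Yeast start codons are most often preceded by an A at position -3, counted back from the first base of the codon, and recognition of the codon is sensitive to it. An A stands there in 33 of the 44 genes (75%), against 60.9% of 6016 nuclear coding genes in R64. SUI1 has a C, as does PRT1, against 8.68% of all genes. The median log2 ratio was 0.10 for the 33 genes with A and 0.06 for the 8 with G, and PRT1 had a ratio of 1.06 (1.01 to 1.12). The lines below run from 9 bases before the codon to its end and 3 bases on, at chrXIV:187491-187505 (SUI1, reverse), chrXV:1017647-1017661 (PRT1, reverse), chrXIII:789834-789848 (TIF11, reverse), chrXVI:700585-700599 (TEF1, forward) and chrXVI:464392-464406 (CAM1, forward) in R64. Capitals mark the base at -3 and the start codon.
SUI1: gcaaatCgtATGtcc
PRT1: gggaaaCtaATGaaa
TIF11: aagttcAtcATGggt
TEF1: aattacAaaATGggt
CAM1: ttgcacGccATGtct

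Among the genes that act at the mRNA ends, eIF4A stood above 1 and the cap-binding protein below it. TIF1 had 8022 reads in TRA1 and 7722 in tra1-L3733A, TIF2 had 7699 and 7397, and both ratios were 1.19 (1.16 to 1.23). CDC33, the gene of the cap-binding protein eIF4E, had 3091 and 2126 reads, for a ratio of 0.854 (0.808 to 0.903). Per kb the values listed for TIF1 and TIF2 were 565 and 542 CPM in TRA1 and 675 and 647 in tra1-L3733A, and CDC33 stood at 403 and 344. The values for either eIF4A copy do not give its own level, so neither copy is ranked against CDC33. None of the 9 genes of this group was called, and their median log2 ratio was 0.05.

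The genes of the scaffold eIF4G differed from each other. TIF4631 had 3732 and 3102 reads, for a ratio of 1.03 (0.984 to 1.08), and TIF4632 had 1370 and 893 and a ratio of 0.809 (0.743 to 0.881). TIF4631 was 2.62 times as high per kb as TIF4632 in TRA1 and 3.34 times in tra1-L3733A, and the ratio intervals did not overlap. The TIF4632 value differed between the count columns, at 0.911 (0.809 to 1.02) in fr and 0.711 (0.628 to 0.806) in rr. The interval of its summed counts leaves that difference out. PAB1, the gene of the poly(A)-binding protein, had 9514 and 8192 reads, for a ratio of 1.07 (1.04 to 1.10). TIF3, the gene of eIF4B, which aids the helicase, had 3498 and 2924 reads, for a ratio of 1.04 (0.988 to 1.09). The repressors that compete with eIF4G for eIF4E were CAF20, which overlaps YOR277C, at 0.883 (0.816 to 0.956) and EAP1 at 0.948 (0.876 to 1.03).

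The eIF3 genes, whose products form the large scaffold on the small subunit, included 1 that stood apart from the rest. NIP1, the gene of the c subunit, had 2054 reads in TRA1 and 2243 in tra1-L3733A, or 70.4 and 95.5 CPM per kb, and a ratio of 1.36 (1.28 to 1.44), short of the rule. RPG1 (subunit a) was at 1.08 (1.04 to 1.12), PRT1 (b) at 1.06, TIF34 (i) at 0.920 (0.878 to 0.964) and TIF35 (g) at 0.906 (0.848 to 0.969). HCR1 (j), which joins the complex loosely, was at 1.13 (1.06 to 1.20). The interval of NIP1 overlapped none of the other 5. Across the 5 core genes the highest level per kb, of TIF34, was 4.74 times the lowest, of NIP1, in TRA1 and 3.22 times in tra1-L3733A. The TIF35 value also differed between the columns, at 0.995 (0.906 to 1.09) in fr and 0.823 (0.747 to 0.906) in rr.

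The genes of eIF2B, the exchange factor of eIF2, stood below every gene of eIF2 and eIF3 in level, in both libraries. Per kb they spanned 51.6 to 69.3 CPM in TRA1, the highest 1.34 times the lowest, and 59.9 to 77.7 in tra1-L3733A, 1.30 times, a narrower span than that of eIF2 or the eIF3 core. GCD6, the catalytic epsilon subunit, had 1321 and 1383 reads, for a ratio of 1.30 (1.20 to 1.40). GCD7 (beta) was at 1.19 (1.08 to 1.30), GCD1 (gamma) at 1.07 (0.990 to 1.16), GCD2 (delta) at 0.952 (0.880 to 1.03) and GCN3 (alpha), the regulatory subunit that senses phosphorylated eIF2, at 0.926 (0.829 to 1.03). None of the 5 was called, and the catalytic subunit had the highest ratio.

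All 4 genes of the general amino acid control had ratios above 1 and none was called. GCN4, the transcriptional activator of amino acid synthesis genes, had 19246 reads in TRA1 and 18979 in tra1-L3733A, or 1904 and 2330.4 CPM per kb, a ratio of 1.22 (1.20 to 1.249). Gcn4 is controlled chiefly at translation, so its mRNA level does not give its activity. GCN2, the kinase, had 1300 and 1090 reads, or 21.8 and 22.7 CPM per kb, a ratio of 1.04 (0.959 to 1.13). GCN1, which binds ribosomes and Gcn2, was at 1.03 with an interval that held 1, and GCN20, its partner, which overlaps YFR009W-A, at 1.11 (1.05 to 1.18). Scaled by total counts or by lane reads, GCN1 and GCN2 lay below 1, at 0.961 to 0.978, while GCN4 and GCN20 stayed above it.

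The release factor genes stood on opposite sides of 1. SUP45, the gene of eRF1, which reads stop codons, had 3086 reads in TRA1 and 2086 in tra1-L3733A and a ratio of 0.839 (0.793 to 0.887). SUP35, the gene of the GTPase eRF3, had 4568 and 3956 reads, for a ratio of 1.08 (1.03 to 1.12). Per kb SUP45 was above SUP35 in TRA1, at 196 and 186 CPM, and below it in tra1-L3733A, at 165 and 199.5. Neither gene was called.

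**Figure D4:**
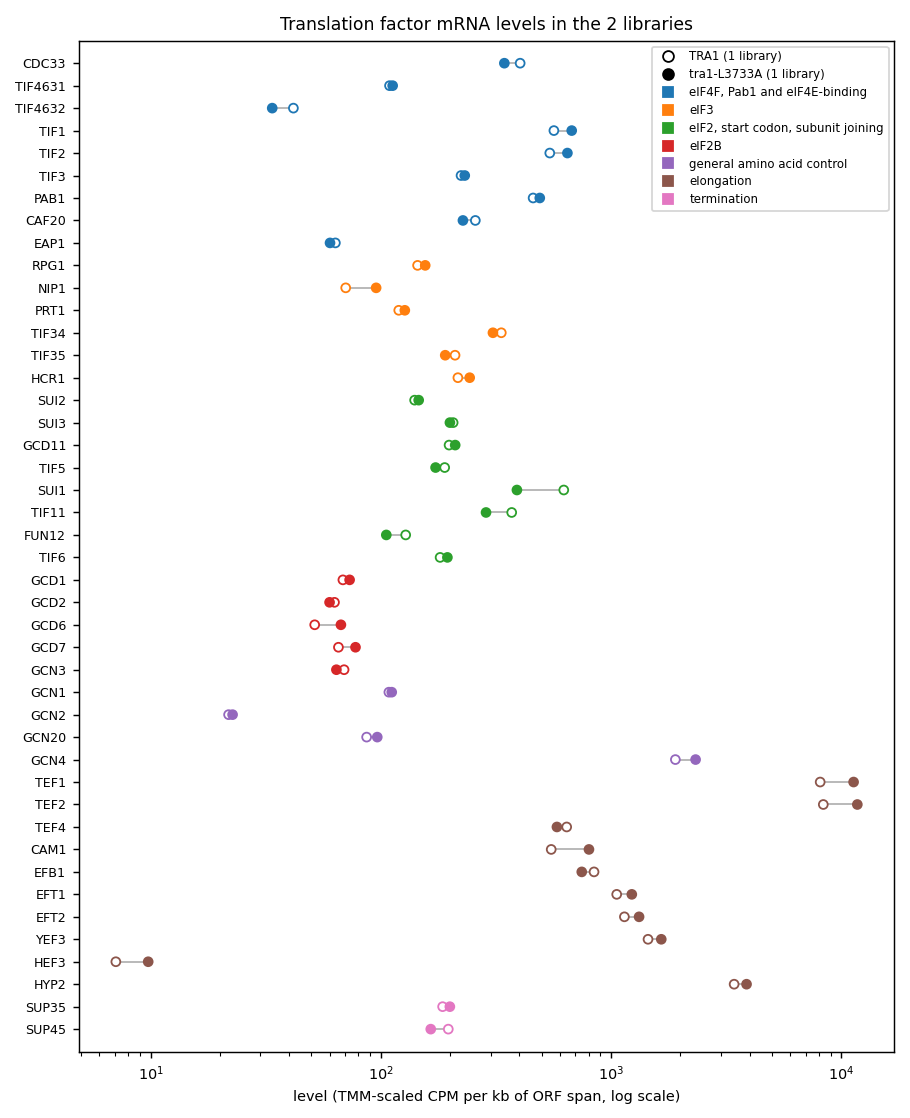
Level of each of the 44 genes (TMM-scaled CPM per kb of ORF span, log scale) in the TRA1 library (open points) and the tra1-L3733A library (filled points), coloured by role, 1 library per strain. Levels run from about 7.07 for HEF3 to 11746 for TEF2, and the gap between the points is small beside the range between genes.

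Across the set the short genes had lower ratios than the long ones. Of 13 genes with a span under 1000 bases, 8 had a log2 ratio below 0 and the median was -0.11, and of 31 longer ones 8 lay below 0 and the median was 0.10. Over all ORFs tested the medians were -0.04 for 2747 short and 0.01 for 3501 longer ones. Calls of lower were more frequent among short ORFs, at 8.34%, against 3.20% of the longer ones. Of the 13 short genes of the set 1 (7.69%), SUI1, was called lower, a share near that of short ORFs. Spearman's rho between span and log2 ratio was 0.23 over the 44 genes and 0.03 over all ORFs tested. These correlations are across genes of the same 2 libraries, and genes are not independent replicates. The part of length in the ratios was not tested beyond removal of the trend over all ORFs, which left SUI1 at 0.640 and the median at 0.08.

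The fr and rr columns gave ratios whose intervals did not overlap for 3 of the 44 genes (6.82%), TIF4632, TIF35 and TEF1, against 2.5% of ORFs tested. Such intervals were more frequent at high levels, with 85 of the 625 ORFs in the most abundant 10% and 25 of the 50 most abundant per kb. TEF1 stood at 1.37 (1.36 to 1.39) in fr and 1.42 (1.40 to 1.43) in rr. For these 3 genes the interval of the summed counts leaves out the difference between the columns, so it may be too narrow as a measure of error. It may be so for other genes too. What sets the undefined columns apart was not tested. With fr alone none of the 44 was called lower, and with rr alone SUI1 was.

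**Figure D5:**
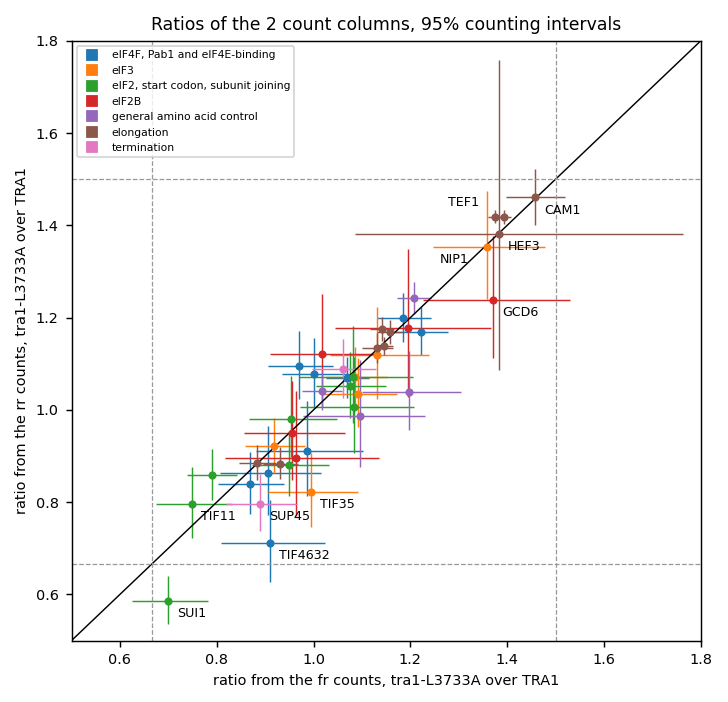
Ratio, tra1-L3733A over TRA1, from the rr counts against the ratio from the fr counts for each of the 44 genes, with 95% counting intervals and dashed lines at 1.5-fold, 1 library per strain. SUI1 lies below the lower line in rr at 0.585 and inside it in fr at 0.699, and TIF35 and TIF4632 lie below the diagonal.

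Few of the other cytosolic translation genes differed by much. Of 44 further genes, among them ribosome recycling, rescue and factor modification genes and RNA helicases, 0 were called in either direction, against 2.8% of all ORFs tested higher and 5.46% lower, and the median log2 ratio was 0.04. There were 26 log2 ratios above 0 and 18 below. TMA46, whose product associates with ribosomes, had 728 and 409 reads, for a ratio of 0.697 (0.616 to 0.788), and was called lower after scaling by total counts or by lane reads. DED1, the scanning helicase, which overlaps YOR203W, was at 0.800 (0.750 to 0.852), and DBP1, its paralog, at 0.868 (0.692 to 1.09), an interval that held 1. PUB1, the gene of a poly(U)-binding protein, was at 0.822 (0.780 to 0.866), and GCD10, of a tRNA methyltransferase found through general control mutants, at 1.30 (1.16 to 1.47).

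Other parts of the translation machinery are set beside the factor genes by counts and medians, without a test. Of 22 cytosolic tRNA synthetase genes 0 were called, a count near the background of 2.8% higher and 5.46% lower, and the median log2 ratio was 0.04. Of 138 cytosolic ribosomal protein genes found by name, 23 were called lower, against the background of 5.46%, and 0 higher, against 2.8%, with a median of -0.22. The fr and rr intervals did not overlap for 25 of the 138, against 2.5% of ORFs tested. A log2 ratio above 0 was seen for 29 of those 138, for 28 of the 44 translation factor genes and for 3102 of the 6248 ORFs tested. The majority of the 44 turned with the scaling, since 19 of them lay above 0 when scaled by total counts. That scaling moved all ORFs alike, to a median of -0.10 beside -0.01 for the 44 genes.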

How the data were processed

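The authors' deposited files hold raw read counts per ORF, 1 file per library, with headers fr and rr per the file headers, which do not define them; both were summed. A further deposited column holds coverage, reads per base, which equals the summed counts over the ORF span within rounding in every row, and it entered no result. Novoalign is named in the submitters' processing notes, and the sources used here do not give its version, the build, the counting or the treatment of reads with several matches. Per the labels' protocols each library was read on 1 lane as 35-nucleotide reads, 13014880 in TRA1 against 11156078 in tra1-L3733A, with RNA integrity numbers above 8.9. The files' ORF starts match R64 for 917 of 5916 ORFs shared by identifier, so a coordinate is from the files wherever R64 is not mentioned, and sequences come from the RefSeq R64 assembly by locus tag.

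TMM factors were 1.03 and 0.967 (edgeR 4.0.16, R 4.3.3). edgeR served for these factors alone, since its quasi-likelihood test could not be fitted without replicates, and no p-value is given. Log2 ratios added 0.5 reads to each count. A count of 0 would allow up to 3 reads, 0.259 CPM in TRA1 and 0.301 in tra1-L3733A, and no gene described was at 0. The interval and the size rule were run on simulated counts with counting error alone and 2-fold changes, which is no test of them on real libraries. The members, the gene lists and the rules were chosen with earlier results of these data known. Every gene of the set is named. From the other lists the genes named are ANB1, the paralog of HYP2, the helicase genes DED1 and DBP1 as relatives of the eIF4A genes, and those whose interval left out 1 with the bound nearest to 1 farthest from it. Of the further genes 5 were matched through older names in the R64 gene table, and 1 mitochondrial name was not matched. Overlaps with another listed ORF affect 1244 ORFs, where a read may have been counted for each.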

Additional observations from a re-analysis of the deposited data

How the results depend on the processing

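The call of SUI1 as the only translation factor gene called, with 0 called higher, held under 11 of the 14 alternatives. It was lost with the fr column alone, with 0 called lower, and under a 2-fold rule, with 0 called lower. A rule at 25% above the other level gave 6 higher and 2 lower. The median log2 ratio of the 44 genes, 0.09, was -0.0102 with scaling by total counts and -0.00186 with scaling by lane reads, which move every ratio alike, and it ran from 0.05 to 0.11 under the others. With scaling by total counts, 9 genes with ratios near 1 changed side, while 19 stayed above and 16 below it under all 4 scalings. Over all ORFs tested, 175 were higher and 341 lower. The split was 91 and 515 with scaling by total counts, and 98 and 500 with lane reads. It was 20 and 57 under the 2-fold rule, and 670 and 902 under the 25% rule. Of the other cytosolic translation genes, 0 were called, against 1 with scaling by total counts, with lane reads, after taking out the GC trend and with the fr column alone (TMA46 in each), 1 with the rr column alone (MTQ2, named after its value was seen) and 6 under the 25% rule. Beyond what each rule or scaling does by its construction, the cause of these differences was not tested. No paired analysis was possible because there was 1 library per strain, and for the same reason no replicate could be left out. Depth limits HEF3 most, with 265 and 295 reads.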

Other observations

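Mitochondria translate their own mRNAs with nuclear-encoded factors of bacterial kind, and these genes were not part of the set. Of 8 that were measured 0 were called, a count near the background of 2.8% of all ORFs tested higher and 5.46% lower, and their median log2 ratio was 0.06, with 6 above 0. TUF1, the mitochondrial counterpart of eEF1A, had 5631 reads in TRA1 and 5846 in tra1-L3733A, or 358 and 462 CPM per kb, a ratio of 1.29 (1.24 to 1.34). Among the tRNA synthetase genes, GUS1, which charges glutamate, was at 1.27 (1.24 to 1.31) and SES1, which charges serine, at 0.796 (0.757 to 0.838).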
